A study of Mus musculus with 80 samples.

Results

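The genes described here are the splicing factor and hnRNP genes: the protein-coding genes of the GENCODE M21 annotation whose symbols begin with Hnrnp, Srsf, Snrp, Sf3a or Sf3b. There were 52 such genes among 21938 protein-coding genes, namely 20 hnRNP genes, 11 SR protein genes, 12 genes for Sm or other snRNP proteins, 3 SF3A genes and 6 SF3B genes. The rule uses gene names only, but it was set with earlier results of these data known. For every gene the ChIP-seq intervals of the retinoid X receptor (RXR) that overlapped an exon by at least 1 base were counted ("exonic"), and separately those within the gene that touched introns only ("intronic").

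RXR is the nuclear receptor that pairs with PPARγ, the receptor activated by pioglitazone (Pio). RXR was immunoprecipitated from livers of male mice aged 5 months after 12 weeks of diet. The study gives C57BL6/J as the strain of the wild-type (WT) mice. Liver-specific PPARγ knockout (KO) mice were bred from PPARγ-loxP and Alb-Cre mice, so a difference in background cannot be told apart from genotype. Alb-Cre deletes the gene in hepatocytes, and deletion in the other cells of the liver is not reported. Mice of each genotype received a control diet (Control), the control diet with Pio (Pio), a high-fat diet (HFD) or that diet with Pio (HFD-Pio). This gave 8 groups of 5 livers, 40 ChIP libraries and 40 input libraries. Of the 20 KO ChIP libraries, 15 carry no antibody in their label although their titles name RXR, and they were taken as RXR ChIP.

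Removal of introns from pre-mRNA is carried out by the spliceosome, whose snRNPs consist of small nuclear RNAs, a ring of Sm proteins and particle-specific proteins. SF3A and SF3B are parts of the U2 snRNP, which recognises the branch point. SR proteins bind exons and promote their inclusion, and hnRNPs coat nascent RNA and often repress it. Most of these genes are transcribed at a high level in nearly every cell type.

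Properties of the libraries bear on every count below. WT ChIP libraries kept between 2035170 and 4256749 reads and KO libraries between 627698 and 1057899 after duplicate removal. The number of intervals per library was 1036 to 12919 in WT Control and 579 to 1902 in WT HFD. It was 1905 to 33705 in Pio-treated WT and 7630 to 30437 in KO libraries. Per the file headers, intervals were called at p of 0.001 in WT and at q of 0.05 in KO, so the cutoff differed with genotype. It can be matched from the deposited q values: with q of at most 0.05 in every library, the number of members with an exonic interval in at least 3 of 5 livers was 35 in WT Pio and 14 in WT HFD-Pio, and 43 to 47 in the KO groups. The shares of all genes at this matched cutoff are not given, so these counts do not set members apart from other genes. Genotype and depth cannot be told apart. The fragment length estimated by MACS2 was 45 to 48 bp in 6 WT libraries, all of them Pio-treated (Pio replicates 2, 3 and 5 and HFD-Pio replicates 1, 4 and 5), and 169 to 263 bp in the other 4 treated WT libraries. The labelled tissue is liver, but of 20 hepatocyte marker genes between 0 and 2 had an exonic interval in any liver other than those of WT Control, where the range was 0 to 9. Of 20 neural marker genes, 16 had an exonic interval in at least 3 of 5 livers of each KO group and 1 in each treated WT group. Of 20 intestinal marker genes, 6 did in each treated WT group and 0 in each KO group. Of 10 stellate and stromal markers 4 or 5 did in treated WT and 5 to 7 in KO, of 10 cholangiocyte markers 2 and 0 or 1, of 10 endothelial markers 0 and 1 or 2, and of 10 Kupffer cell markers 0 and 0 or 1. Alb and Apob, which hepatocytes transcribe at a high level, had no exonic interval in any treated WT or KO liver. The part of these differences in the results below was not tested.

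The splice site nearest to the summit of the strongest treated WT exonic interval is printed below, whether or not the interval reached it. It is given for 7 of the 8 members with the largest difference in livers between treated and untreated WT. Snrpd1, the remaining member, is not printed. Several members tied at a difference of 8 livers, and the tie was settled by mean fold enrichment in treated WT. Each line gives 30 bases in the direction of transcription, from the mm10 assembly (GRCm38.p6, NCBI RefSeq). Capitals mark exon bases and lower case intron bases of the longest protein-coding transcript of the gene. Exonic intervals were counted on the exons of all annotated transcripts, so bases in lower case can be exonic there. Hnrnpa2b1 was such a case, with all 590 bp of its interval counted as exonic.
Hnrnpa2b1, chr6:51463240-51463269, minus strand: cttctgttgaaacagGCTTCACTGTATAAA
Srsf2, chr11:116850947-116850976, minus strand: tcttttcaaacctagATGAATCGGCAAGCG
Hnrnpc, chr14:52075146-52075175, minus strand: gtgtctttctcacagCTGGAGTTGAAGGAT
Hnrnpdl, chr5:100034970-100034999, minus strand: tcgtttttgttttagGAGGTGTAAAGAAAC
Srsf7, chr17:80201588-80201617, minus strand: tgtttttctttttagTCGTTCCCCATCAGG
Snrpd3, chr10:75532355-75532384, plus strand: TCCTGAAGGCCCAAGgtaggtacccttggc
Hnrnpk, chr13:58392462-58392491, minus strand: tcttttcttttatagTGTGAAGCAGTATGC
In each of the 7 genes the summit lay in the exon, between 45 bp (Srsf7) and 740 bp (Srsf2) from the printed edge. The printed bases lay within the interval for Hnrnpa2b1, Srsf7 and Hnrnpk. They lay outside it for Srsf2, Hnrnpc, Hnrnpdl and Snrpd3. The interval on Hnrnpc covered 81 bp and the one on Hnrnpdl 74 bp, all of it exonic. The interval on Snrpd3 was 164 bp wide with 158 bp in exons, and that on Hnrnpk was 591 bp wide with 523 bp in exons.

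Pio-treated WT livers carried exonic intervals on 7 to 45 of the 52 splicing genes, and untreated WT livers on 0 to 2. The 5 WT Control livers had 0, 0, 0, 0 and 2 members with an exonic interval, and the 5 WT Pio livers 34, 37, 45, 9 and 33. All 5 WT HFD livers had 0, and the WT HFD-Pio livers had 42, 7, 10, 37 and 26. Every treated WT liver was therefore above every untreated one, with the lowest counts in Pio replicate 4 and HFD-Pio replicates 2 and 3, which were libraries with a long fragment estimate; the remaining such library, Pio replicate 1, had 34. In KO livers the counts were 35 to 48 of 52 whatever the treatment. Among all other genes the share with an exonic interval was 0.119 to 1.10% per untreated WT liver, 1.10 to 15.8% per treated WT liver and 12.1 to 31.2% per KO liver.

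**Figure D1:**
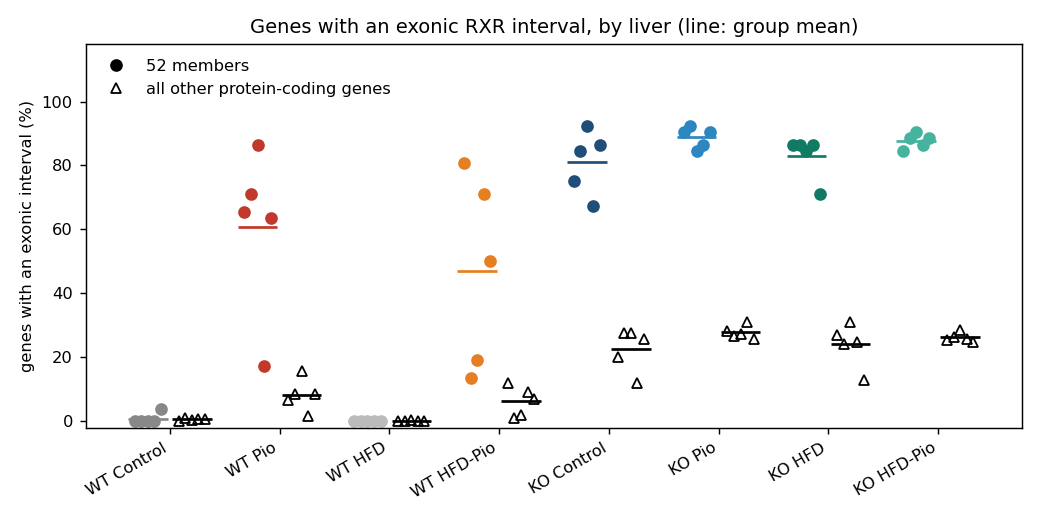
Percentage of the 52 members (filled circles) and of all other protein-coding genes (open triangles) with an exonic RXR interval, 1 point per liver, with lines at the group means. Members lie above the other genes in every treated WT and every KO liver, and KO livers range from 67.3 to 92.3%.

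At least 3 of 5 livers had an exonic interval on 36 members after Pio in WT, where 6.55% of all genes were called, and on 26 members after HFD-Pio, where 4.0% were. Both untreated WT groups had 0 such members, with 0.0593% (Control) and 0.0547% (HFD) of all genes. The KO groups had 43 (Control), 47 (Pio), 44 (HFD) and 47 (HFD-Pio) members, where 22.0%, 26.9%, 23.6% and 25.0% of all genes were called. By role, the WT Pio call was made for 15 of 20 hnRNP genes, 8 of 11 SR protein genes, 9 of 12 Sm and snRNP genes, 4 of 6 SF3B genes and 0 of 3 SF3A genes. The median member had an exonic interval in 6 of 10 treated WT and 20 of 20 KO livers. Members have more exon sequence to hit than other genes, with a median of 3915 against 3499 bp.

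**Figure D2:**
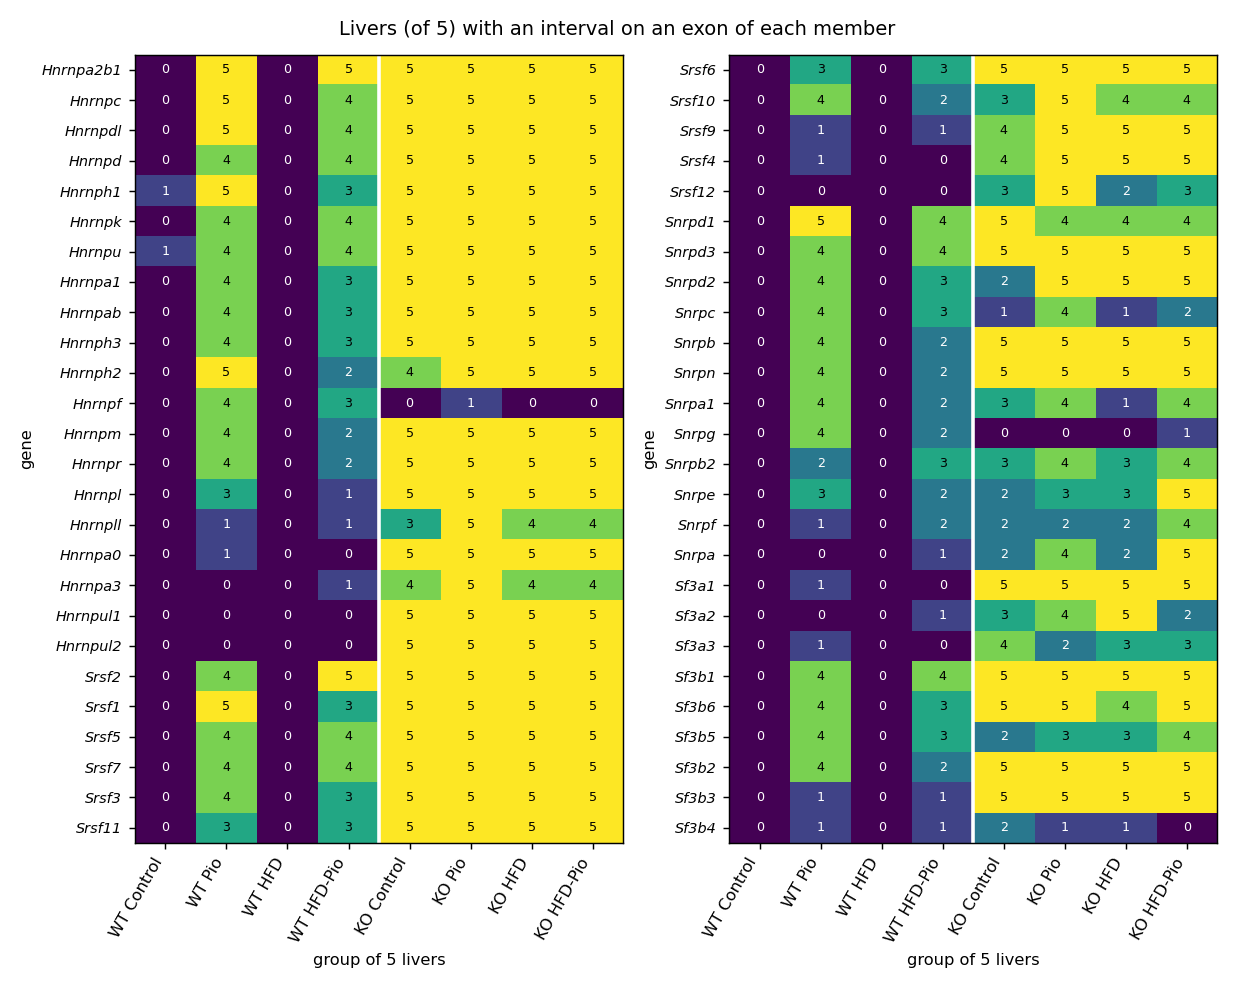
Number of livers, of 5 per group, with an interval on an exon of each of the 52 members, ordered by role. Columns left of the white line are WT and those right of it KO. The untreated WT columns hold 0 apart from 1 liver each for Hnrnph1 and Hnrnpu.

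Comparing Pio with Control in WT, 34 members were gained, meaning that they had an exonic interval in at least 3 of 5 treated and 0 of 5 untreated livers, against 6.32% of all genes. None was lost, as for all genes (0). Numbers of livers were tested gene by gene with Fisher's exact test (two-sided, Benjamini-Hochberg adjusted) in the 1000 genes called in at least 4 of the 10 livers. Nearly every member had 0 untreated livers and entered this set through the treated livers alone, and 4 of 5 against 0 of 5 livers gave an adjusted Fisher p of 0.0497, so the filter itself set the outcome. That 31 of 32 members and 95.9% of all tested genes passed is therefore no support for a difference. With all 4741 genes called in any of the 10 livers tested, 0 genes and 0 members passed the Fisher test. In HFD-Pio against HFD, 26 members were gained against 3.93% of all genes, and 0 were lost. The same limit applies to the Fisher test of this comparison, in which 2 of 12 members (Hnrnpa2b1 and Srsf2) and 39.6% of 336 genes passed; with all 3903 genes called in any liver tested, 0 genes passed. The 12 genes (Pio) and 10 genes (HFD-Pio) with an exonic interval in all 10 livers of these comparisons included no member, so limma gave no value on fold enrichment. Every library was also cut to the shortest list of its comparison, strongest intervals first (1036 intervals for Pio and 579 for HFD-Pio). Under this cut 5 (Pio) and 1 (HFD-Pio) members were gained. In the treated livers with a long fragment estimate alone 7 and 3 members had an interval in both livers and in 0 of 5 untreated livers. The shares of all genes under these settings are not given. Without HFD-Pio replicate 1 or 4 the gain in HFD-Pio was 12 members, and without replicate 5 it was 13.

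Among hnRNP genes, Hnrnpa2b1, which encodes an RNA-binding protein that packages pre-mRNA, led the list. It lies at chr6:51460932-51469894. Fold enrichment over input of its strongest exonic interval was 13.8, 11.5, 18.2, 2.85 and 19.7 in the WT Pio livers and 21.6, 5.43, 9.01, 24.4 and 11.7 in the WT HFD-Pio livers. No untreated WT liver had an interval on its exons. By the exact Fisher test over all genes called in any liver the adjusted p was 0.154 for Pio and 0.233 for HFD-Pio, so neither passed. In KO livers the fold enrichment averaged 21.4 ± 4.21 (SD, n = 20), and the groups overlapped with the treated WT livers.

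Hnrnpc, a core hnRNP protein, had values of 5.77, 7.48, 10.02, 3.70 and 5.63 in WT Pio and of 6.19, 3.88, 10.3 and 4.58 in 4 of 5 HFD-Pio livers. Hnrnpdl, a relative of Hnrnpd, had 4.90, 3.74, 7.16, 4.68 and 7.51 in WT Pio and was likewise called in 4 HFD-Pio livers. Their KO means were 10.03 ± 2.79 and 11.7 ± 2.04 (SD, n = 20). Hnrnpk, a KH-domain protein that binds C-rich RNA, was called in 8 of 10 treated WT livers with values from 3.66 to 19.7 and in 20 of 20 KO livers with a mean of 12.4 ± 3.12. Hnrnpab and Hnrnpd, both binders of AU-rich RNA, had KO means of 15.5 ± 3.13 and 14.3 ± 2.53 (SD, n = 20) and were called in 7 and 8 of 10 treated WT livers. Of the 20 hnRNP genes, 12 were called in at least 7 of 10 treated WT livers. The share of all genes at this threshold is not given, so the count does not set hnRNP genes apart. Hnrnph1 and Hnrnpu were the only members with an exonic interval in any untreated WT liver, both in WT Control replicate 5 and both at 3.55.

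A few hnRNP genes were called in one genotype only or nearly so. Calls in at least 3 KO and 0 WT livers were made for 16.7% (Pio) and 16.2% (HFD-Pio) of all genes. Among members the shares were 11.5% and 13.5%. The opposite call was made for 1.08% and 0.775% of all genes and for 1.92% of members in each. Hnrnpul1 and Hnrnpul2, which encode hnRNP U-like proteins, had no exonic interval in 10 treated WT livers and one in each of 20 KO livers, with means of 9.42 ± 1.77 and 7.09 ± 1.41 (SD, n = 20). Hnrnpa0, an intronless gene of the hnRNP A family, was called once in treated WT, at 3.61 in WT Pio replicate 3, and in 20 of 20 KO livers at 17.1 ± 3.90 (SD, n = 20). Hnrnpf, whose product binds G-rich RNA, was named after its values were seen and showed the opposite order. Its values were 6.08, 2.68, 5.47 and 4.69 in 4 WT Pio livers and 4.69, 3.81 and 2.75 in 3 HFD-Pio livers, whereas only 1 of 20 KO livers had an interval, at 3.75.

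Among SR protein genes, Srsf2, which controls exon inclusion, was called in 9 of 10 treated WT livers. Its fold enrichment was 9.71, 7.39, 12.8 and 5.45 in 4 WT Pio livers and 10.3, 6.98, 5.64, 9.43 and 4.57 in the 5 HFD-Pio livers. KO livers averaged 12.3 ± 2.57 (SD, n = 20). Srsf7 was called in 8 of 10 treated WT livers with a mean of 9.80 ± 4.36 (SD, n = 8) and in 20 of 20 KO livers at 8.67 ± 1.76, so the levels overlapped. Srsf12, named after its values were seen, was the SR gene without an exonic interval in treated WT (0 of 10 livers, 13 of 20 in KO).

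Sm proteins form the ring around the small nuclear RNAs. Snrpd1 was called in 9 of 10 treated WT livers, including all 4 with a long fragment estimate, with a mean of 7.79 ± 3.44 (SD, n = 9), and in 17 of 20 KO livers at 4.90 ± 1.07. Snrpd3 was called in 8 of 10 treated WT livers at 9.41 ± 4.57 and in 20 of 20 KO livers at 8.10 ± 2.16. Snrpg, named after its values were seen, had an interval in 6 of 10 treated WT livers, with values from 3.74 to 8.28. It had one in 1 of 20 KO livers at 3.78. Of the U2 proteins, the 3 SF3A genes were each called in 1 of 10 treated WT livers and in 12 to 20 KO livers. The SF3B genes ranged from 2 of 10 treated WT livers (Sf3b3 and Sf3b4) through 6 (Sf3b2) and 7 (Sf3b5 and Sf3b6) to 8 for Sf3b1, which contacts the branch site, at 4.42 ± 0.765 (SD, n = 8) and at 11.2 ± 1.75 in 20 of 20 KO livers. A difference between SF3A and SF3B was not tested.

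**Figure D3:**
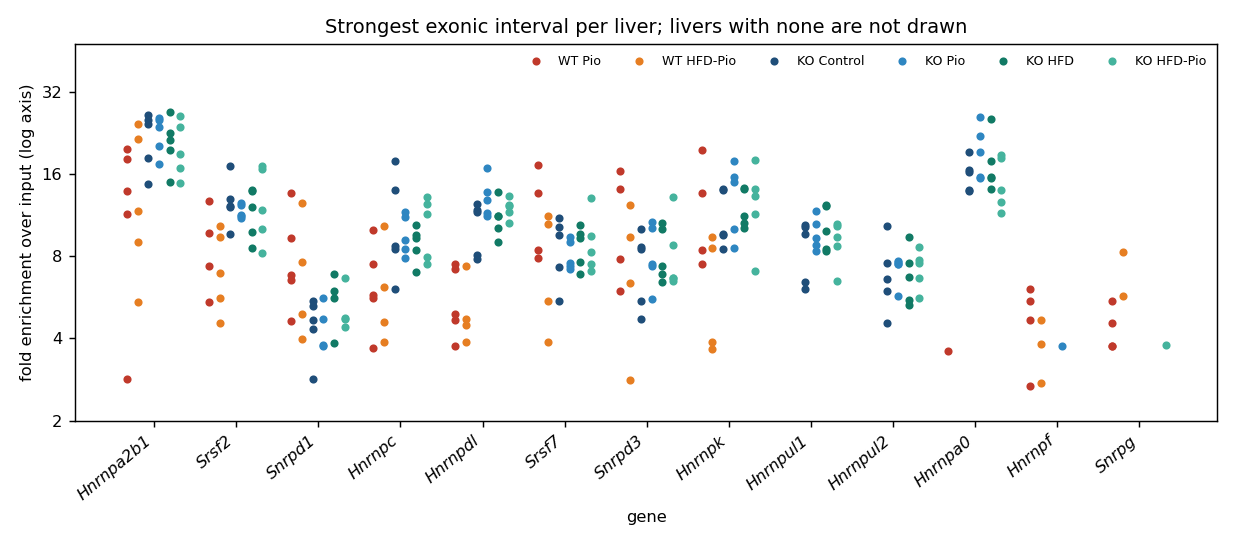
Fold enrichment over input of the strongest exonic interval, on a log axis, for the 8 members with the largest difference in livers between treated and untreated WT (ties by fold enrichment) and 5 members that differed in calls between WT and KO. Of the 5, Hnrnpf and Snrpg were chosen after their values were seen. Each point is 1 liver and livers without an interval are not drawn. Hnrnpul1 and Hnrnpul2 have points for KO livers only, and Hnrnpf and Snrpg have 1 KO point each.

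Among KO livers no member passed a test for Pio; whether the response differed between genotypes was not tested. In KO Pio against KO Control 0 members were gained or lost, against 0.903% and 0.0957% of all genes. Only 2 members (Hnrnpf and Snrpg) had 0 KO Control livers and so could have been gained, and no member could have been lost, so these counts say nothing about a response to Pio. The Fisher test covered 49 members, of which 0 passed; 0 of 6335 genes passed it after adjustment, with 106 at an unadjusted p below 0.05, none of them a member. In KO HFD-Pio against KO HFD 0 members were gained or lost (0.392% and 0.237% of all genes), with the same 2 members open to a gain, and 0 of 48 members and 0 of 6238 genes passed. Fold enrichment in the 31 and 34 members with an exonic interval in all 10 livers was compared with limma. Neither comparison gave a call among the 2046 and 2211 genes tested, with 113 and 94 genes and 0 and 2 members at an unadjusted p below 0.05. The median log2 difference of members was -0.02 for Pio and 0.01 for HFD-Pio, beside 0.02 and -0.02 over all genes.

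Between genotypes at the same treatment, 34 members (Pio) and 24 members (HFD-Pio) had an exonic interval in at least 3 of 5 livers of both. Of all genes, 6.55% had this call in WT Pio and 26.9% in KO Pio, and 4.0% in WT HFD-Pio and 25.0% in KO HFD-Pio. The share of all genes with the call in both genotypes is not given. In WT Pio against KO Pio 1 member (Snrpg) was called in at least 3 WT and 0 KO livers, against 1.08% of all genes, and 6 were called in at least 3 KO and 0 WT livers (Hnrnpa3, Hnrnpul1, Hnrnpul2, Srsf12, Snrpa and Sf3a2), against 16.7%. The Fisher test passed 4 of 49 members, all with more KO livers, where 38.6% of 5637 genes passed in that direction and 0.674% in the other. In WT HFD-Pio against KO HFD-Pio 1 member (Hnrnpf) was called in WT only (0.775% of all genes) and 7 in KO only (Hnrnpa0, Hnrnpul1, Hnrnpul2, Srsf4, Srsf12, Sf3a1 and Sf3a3; 16.2%), and 5 of 46 passed the Fisher test, all with more KO livers, against 40.1% of 4986 genes in that direction and 0.461% in the other. Both comparisons set libraries of different depth and cutoff side by side. With q of at most 0.05 in every library, the members called in KO only numbered 6 for Pio and 11 for HFD-Pio, those called in WT only 1 and 0, and those passing the Fisher test 4 and 7. The shares of all genes at this matched cutoff are not given.

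Fold enrichment was lower in WT Pio than in KO Pio for 5 of the 6 members with an exonic interval in all 10 livers, where limma called 25.3% of 166 genes lower and 19.9% higher. The log2 difference was -1.23 ± 0.24 (SE) for Hnrnpdl (adjusted p = 0.000307, limma), -1.27 ± 0.27 for Hnrnph1 (adjusted p = 0.000664) and -0.97 ± 0.26 for Hnrnpa2b1 (adjusted p = 0.00436). Hnrnpc and Srsf1 were lower by less than 2-fold. Without centring on the library median 2 of the 5 calls were made, and without WT Pio replicate 5 there were 3. For Hnrnph2 the difference was 0.14 ± 0.24, which did not pass. In HFD-Pio livers 2 members could be compared; Srsf2 was lower in WT by a log2 difference of -0.63 ± 0.26 (adjusted p = 0.0412, limma, against 24.7% of 85 genes lower), and Hnrnpa2b1 did not pass (adjusted p = 0.0662). No member passed without centring, with the replicate block, or without WT HFD-Pio replicate 1 or 4 or KO HFD-Pio replicate 3 or 4.

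Exons make up 28.5% of the members' gene bodies. Of the intervals on members, 96.2% in treated WT and 96.9% in KO libraries touched an exon. In the 6 treated WT libraries with short fragment estimates, 93.1% of 740 exonic intervals lay wholly within exons, with a median width of 68 bp. In the 4 with long estimates 48.5% of 103 did (271 bp), and in KO 43.0% of 4928 (238 bp). Width and exon containment thus moved with the fragment estimate. Summits fell in coding sequence in 59.6% of treated WT and 57.1% of KO exonic intervals. They fell outside the representative mRNA (the longest protein-coding transcript of each gene) in 12.8% and 19.5%. Coding sequence is 37.6% of the length of these mRNAs. The 3′ UTR held 26.1% and 20.3% of summits and is 51.1% of mRNA length. Summit shares are of all exonic intervals and length shares of the mRNAs alone. No values are given for other genes, and a preference for coding sequence was not tested.

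**Figure D4:**
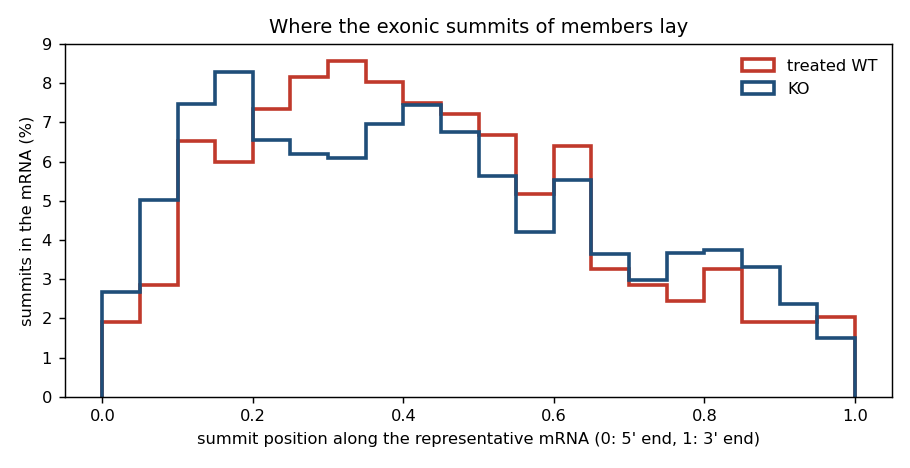
Position of exonic summits of members along the representative mRNA (0 at the 5′ end, 1 at the 3′ end) as a percentage of summits within that mRNA, for treated WT and KO libraries. Both distributions span the transcript, with medians of 0.403 and 0.405.

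Intervals overlapping between libraries were joined into 433 exonic sites on members. Of 173 sites with a treated WT interval, 144 (83.2%) also had one in KO, and these made up 35.6% of the 404 KO sites. Of the 93 sites found in at least 3 of 10 treated WT livers, 65 were found in at least 10 of 20 KO livers and 8 in none. The overlap of sites on other genes is not given, so it is open whether members differ from them. Those 8 lay in Hnrnpa1, Hnrnpf, Hnrnpk, Snrpg and Srsf3, genes chosen here after their values were seen.

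The DR1 element, a direct repeat of AGGTCA with 1 base between the copies, is the arrangement to which RXR heterodimers with PPARγ bind. Windows of 100 bases to each side of the summit of the strongest interval per gene were searched on both strands, allowing 2 mismatches over the 12 fixed bases. No window at an exonic summit of a member held it, in 49 genes with a treated WT interval or 52 with a KO interval. Among other genes it was present at 2.28% of 5435 treated WT and 2.83% of 10994 KO exonic summits. At summits of intronic intervals in treated WT, 1 of 13 members held it (Hnrnpll, named after its value was seen), against 2.11% of 8198 other genes, and in KO 0 of 29 members did, against 2.74% of 7231.

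Intronic intervals on members were fewer than exonic ones. Per liver 0 to 7 members in treated WT and 1 to 9 in KO had an interval touching introns only. The mean share per treated WT liver was 5% of members and 9.48% of other genes. Per KO liver it was 11.1% of members and 6.52% of other genes. Srsf10 had one in 17 of 40 livers, Hnrnpr in 15, Hnrnpm in 12 and Snrpn in 10, at fold enrichments of 2.78 to 8.35. The call of at least 3 livers was made for 1 member in WT Pio (5.76% of all genes) and for 0 in WT Control (2.04%), WT HFD (0.451%) and HFD-Pio (5.22%). It was made for 3 members (5.77%) in each KO group, where 3.7% (Control), 4.55% (Pio), 3.69% (HFD) and 4.51% (HFD-Pio) of all genes were called.

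Many members have processed pseudogenes, intronless copies made from mRNA, which reads of 50 bases often cannot tell from the exons. Matching found 86 copies of 21 members with at least 90% identity over 300 bp. Of these, 37 had an interval in at least 3 of 10 treated WT livers and 0 in at least 3 of 10 untreated WT livers. In at least 3 of 20 KO livers 25 had one, so values of these parents are uncertain. The share of all pseudogenes called is not given, so the counts do not set these copies apart from other pseudogenes. The thresholds of 3 of 10 and 3 of 20 livers are unlike, so the counts do not compare the genotypes. Gm7964, a copy of Hnrnpk at 99.2% identity, was called in all 10 treated WT and all 20 KO livers, with a mean fold enrichment of 8.45 ± 4.12 in treated WT. Of 7 Hnrnpf copies 6 were called in at least 3 treated WT livers and 0 in KO, the same order as Hnrnpf itself. Of 16 Hnrnpa1 copies 13 were called in at least 3 treated WT and 9 in at least 3 KO livers. In contrast, none of 26 Hnrnpa3 copies reached 3 livers in either.

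**Figure D5:**
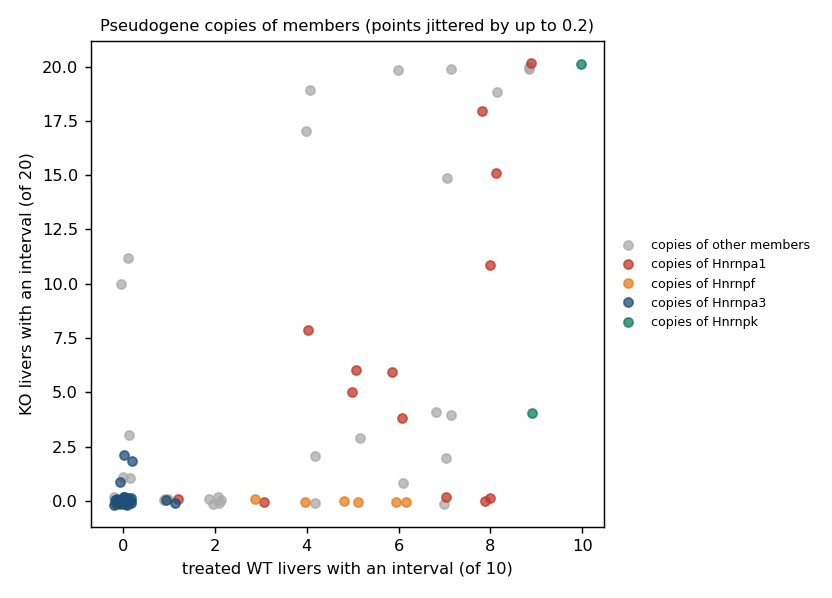
Treated WT livers (of 10, x axis) and KO livers (of 20, y axis) with an interval on each of 86 pseudogene copies of members, points jittered by up to 0.2. Copies of Hnrnpf lie at 0 KO livers, and copies of Hnrnpa3 cluster at the origin.

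Other genes of the splicing machinery, a list of 98 that does not overlap the members, were counted in the same way. By the call of at least 3 livers, 36 of them had an exonic interval after Pio in WT (6.55% of all genes) and 20 after HFD-Pio (4.0%). Both untreated groups had 0, and the KO groups had 69 to 76, where 22.0 to 26.9% of all genes were called. Gained were 33 in WT Pio (6.32% of all genes) and 20 in HFD-Pio (3.93%). Ddx5, an RNA helicase, was called in 10 of 10 treated WT and 20 of 20 KO livers with means of 11.03 ± 5.66 and 13.5 ± 2.06. Son, a speckle protein, was called in 9 of 10 at 12.8 ± 4.80, and Pcbp2, a C-rich RNA-binding protein, in 9 of 10 at 7.10 ± 2.34. Lsm3, an Sm-like protein, was called in 8 of 10 treated WT and 12 of 20 KO livers.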

How the data were processed

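RXR ChIP-seq libraries and inputs from 40 livers were compared. Reads were aligned with Novoalign to mm10 and intervals called per liver against its own input with MACS2 2.1.1.20160309, per the labels and file headers. The authors deposited, for each interval, a fold enrichment (ratio over input), a pileup signal and −log10 p and q values; positions and fold enrichment were used, and the narrowPeak copies were not used. Intervals were intersected with GENCODE M21 (bedtools 2.31.1). The spliced sequences of 52 of 52 representative transcripts were identical between the genome used and GENCODE. Pseudogene copies were found with blastn 2.17.0. Livers were compared with Fisher's exact test (scipy 1.17.1) and fold enrichment with limma 3.58.1 (R 4.3.3, trend, centred on the library median of log2 values); both were tested on simulated data. Members and lists were chosen with earlier results of these data known. Named members were the 8 with the largest difference in exonic livers between treated and untreated WT, 4 with most KO livers but at most 2 of 10 treated WT, 4 with the highest KO fold enrichment, those in untreated WT, 4 with most intronic livers, those past limma, and 4 of the other splicing genes. Members named beyond these, among them Hnrnpf, Snrpg and Srsf12, were chosen after their values were seen. Replicate numbers did not pair the livers (same-numbered correlations -0.126 to 0.109). No 2 libraries shared more than 0.566% of identical intervals. P-values measure the spread between livers of a group only.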

Additional observations from a re-analysis of the deposited data

Results flagged for a closer look

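Of 97 groups of 5 values tested, 4 held a liver far from the rest, and chance flags about 1 in 20 groups. WT Control replicate 5 had 2 members with an exonic interval where the other 4 livers had 0. In KO HFD 1 liver had 37 members where the others had 44 or 45. In KO Pio the lowest fold enrichment stood apart for Hnrnpd (11.3) and for Hnrnpul2 (5.74).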

How the results depend on the processing

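Calls in WT changed with the peak threshold and with single treated livers. The counts in this section are of members, and the shares of all genes under the same settings are not given. Members gained in WT Pio numbered 16 at −log10 q of at least 5, 18 at a fold enrichment of at least 5, 5 with lists of equal length and, chosen after seeing the data, 7 in the 2 livers with long fragment estimates (both against 0 of 5, a rule that differs from 3 of 5, so the change cannot be put down to the estimate). In HFD-Pio they numbered 14 at q of at most 0.05, 4, 6, 1 and 3 under the same settings, and 12 with at least 4 livers. Members in at least 3 of 5 livers fell to 16 in WT Pio at −log10 q of 5, and to 14 and 4 in HFD-Pio. Leaving out 1 liver gave 30 to 36 gained in Pio and 12 to 26 in HFD-Pio, and 32 to 35 and 12 to 26 in at least 3 livers. The Fisher calls became 0 in both with all genes tested and 0 with the replicate block, whose smallest p of 0.0625 cannot pass; at −log10 q of 5 they were 7 and 0, and leaving out 1 liver gave 6 to 32 and 2 to 12. In KO, gains became 1 in Pio with lists of equal length or at most 1 control liver, and 1 in HFD-Pio with at most 1 control liver; leaving out 1 liver gave 0 to 1. Between genotypes in Pio, losses became 12 (−log10 q of 5) or 12 (at most 1) and 6 to 11 without 1 liver. Gains became 3 (equal length), 2 (at most 1) and 1 to 2 without 1 liver. Fisher calls became 0 with the block and 4 to 9 without 1 liver. An exact permutation test of the mean difference, which is a statistic other than Fisher's, made 23 calls. In HFD-Pio, losses became 11, 16, 13 (fold enrichment of 5) and 13 (at most 1), and 5 to 10 without 1 liver. Gains became 0 under 4 settings, and 0 to 1 without 1 liver. Fisher calls became 0 with the block, 9 at −log10 q of 5 and 5 to 7 without 1 liver. The same permutation test made 23 calls. Limma calls in Pio became 2 without centring, 15 with peaks in 4 of 5 livers and 3 to 13 without 1 liver, and in HFD-Pio 0 without centring, 0 with the replicate block, 6 and 0 to 4. Single livers moved counts by over 1.5 times. Without WT HFD-Pio replicate 1, 4 or 5, 12, 12 and 13 members were gained against HFD, and without WT Pio replicate 1, 2, 3 or 5 the Fisher calls against Control were 7, 6, 6 and 6; without HFD-Pio replicate 2 or 3 they were 8 and 5, and without HFD replicate 1 or 3 they were 12. Without WT Pio replicate 3, 11 members were lost against KO Pio and 9 passed Fisher. Limma calls were 13 without WT Pio replicate 4 and 3 without replicate 5; in HFD-Pio they were 4 without WT replicate 2 or 3, and 0 without WT replicate 1 or 4 or KO replicate 3 or 4. The cause of these shifts was not tested. The other results stayed within 1.5 times their value. KO libraries were shallower than WT libraries, and the effect of depth was not tested.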
